A study of Homo sapiens with 10 samples.

Results

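The short-arm region 19p12 of human chromosome 19 holds a dense run of KRAB zinc finger genes, and the RNA of these genes was compared between HCT116 cells and their DNMT1 KO derivative. The genes were taken by position and name: a start between 19.5 and 24.6 Mb on chromosome 19 (hg38) and a symbol beginning ZNF or ZFP followed by a digit. This gave 43 genes, 37 protein-coding and 6 pseudogenes, out of 58884 genes in the count tables, of which 708 carry such a symbol and 304 of those lie on chromosome 19. HCT116 is a human colorectal carcinoma line, labelled WT for genotype, and DNMT1 KO cells are the same line with DNMT1 targeted, which the study describes as a hypomorph that keeps a truncated protein. DNMT1 KO is thus 1 derivative line, and differences between the lines other than DNMT1 cannot be told apart from the effect of the allele. Poly(A) RNA was sequenced in 6 HCT116 libraries (replicates 1, 2, 3, 7, 8 and 9) and 4 DNMT1 KO libraries (replicates 1 to 4), which the labels put in 4 batches. Batch 1 held replicate 1 of each line, batch 2 held replicates 2 and 3 of each, batch 3 held DNMT1 KO replicate 4 and batch 4 held HCT116 replicates 7, 8 and 9. The study describes its replicates as independent cultures. Over all libraries, fitted with no batch term, p-values measure the spread between cultures of each line together with that between batches. Batches 3 and 4 hold 1 line each, so part of the difference between lines cannot be told apart from batch.

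Proteins of this family carry a KRAB domain, which recruits the corepressor TRIM28 and through it the H3K9 methyltransferase SETDB1, and a C-terminal array of C2H2 zinc fingers, which reads DNA. The 19p12 genes arose largely by tandem duplication in primates, so that neighbours share sequence, and several bind retrotransposons. ZNF91 is known as a repressor of SVA elements and ZNF93 of a group of L1 elements. DNMT1 copies CpG methylation onto newly made DNA strands.

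Many promoters of the cluster share a short sequence element. RefSeq promoter windows (GRCh38.p14, 250 bases before to 50 after the annotated start) matched 29 of the 43 genes by symbol, in 30 windows, since ZNF682 has more than 1. The genes with no entry were ZNF56P, ZNF506, ZNF253, ZNF826P, ZNF738, ZNF92P2, ZNF676, ZNF729, ZNF98, ZNF209P, ZNF849P, ZNF99, ZNF728 and ZNF725P. The 7 bases CCGGAAG, read on either strand, occurred in 22 of the 30 windows (73.3%). The same bases occurred in 10.3% of all 35116 RefSeq windows and in 30.8% of the 640 windows of zinc finger genes outside the cluster. In 21 of the 22 windows they read CTTCCGG on the gene's own strand, and in 19 of those the first base lay 17 to 24 bases before the start. The sequences below show 80 bases around this element in the 3 genes that were lower in DNMT1 KO. Beside them are 3 genes tested and not called (labelled kept) and 4 without a single count, because the same promoter block stood in front of genes of all 3 kinds. Capitals mark the element, and each line reads 5′ to 3′ on the gene's strand.
ZNF91 (lower; chr19:23395446-23395525, minus strand): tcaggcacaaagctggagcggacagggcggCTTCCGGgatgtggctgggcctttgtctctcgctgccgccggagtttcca
ZNF724 (lower; chr19:23250363-23250442, minus strand): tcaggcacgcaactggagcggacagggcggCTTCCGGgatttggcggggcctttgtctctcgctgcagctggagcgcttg
ZNF493 (lower; chr19:21397082-21397161, plus strand): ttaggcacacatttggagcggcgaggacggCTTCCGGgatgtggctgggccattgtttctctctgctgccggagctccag
ZNF430 (kept; chr19:21020604-21020683, plus strand): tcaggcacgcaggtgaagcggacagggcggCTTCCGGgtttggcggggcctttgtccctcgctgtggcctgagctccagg
ZNF431 (kept; chr19:21141986-21142065, plus strand): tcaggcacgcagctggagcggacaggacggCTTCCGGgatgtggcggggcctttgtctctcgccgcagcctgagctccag
ZNF254 (kept; chr19:24087139-24087218, plus strand): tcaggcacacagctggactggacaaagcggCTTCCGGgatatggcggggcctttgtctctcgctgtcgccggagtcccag
ZNF85 (no count; chr19:20923203-20923282, plus strand): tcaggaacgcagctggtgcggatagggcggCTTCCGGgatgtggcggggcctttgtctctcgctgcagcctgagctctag
ZNF100 (no count; chr19:21767547-21767626, minus strand): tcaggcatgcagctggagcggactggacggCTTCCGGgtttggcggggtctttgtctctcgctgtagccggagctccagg
ZNF43 (no count; chr19:21836157-21836236, minus strand): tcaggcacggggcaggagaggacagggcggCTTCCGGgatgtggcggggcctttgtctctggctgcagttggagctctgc
ZNF257 (no count; chr19:22052436-22052515, plus strand): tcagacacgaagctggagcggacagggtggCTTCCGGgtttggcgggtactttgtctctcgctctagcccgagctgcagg
Over the 45 pairs of these 10 sequences, aligned on the element without gaps, identity ran from 48.8 to 92.5% with a median of 76.2%. All 10 hold the element, so its 7 bases match in every pair, and other windows were not compared. No gaps were allowed, so a base gained or lost beside the element lowers the identity of all that follows. The element was present in 3 of 3 windows of genes called lower in DNMT1 KO and in 5 of 8 windows of genes tested and not called. It was present in 3 of 6 of genes with counts too few to test and in 11 of 13 of genes with no count. In ZNF708 and ZNF675, both tested and not called, it began 32 and 11 bases after the start. The kept genes printed above, ZNF430, ZNF431 and ZNF254, were thus the only kept genes with a window that held it before the start. The element holds the GGAA core that ETS-family factors are known to read, and the match here is a description of the letters alone.

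**Figure D1:**
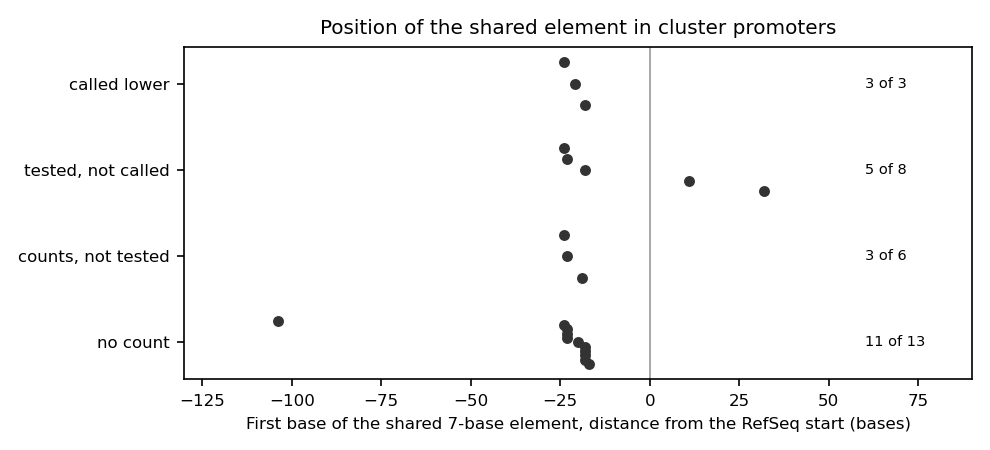
Position of the first base of the shared 7-base element relative to the RefSeq start (x axis, bases; 0 is the start), for cluster promoter windows grouped by expression state (y axis). Numbers at the right give windows with the element out of all windows of that state; 19 points lie 17 to 24 bases before the start, in all 4 states.

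The other 2 motifs were also searched on both strands. GCCATNTT, the letters of a YY1-type site, occurred in 2 of the 30 windows (6.67%, against 6.58% of all windows), and the NRF1-type core TGCGCA, which is its own reverse complement, in 2 (6.67%, against 8.24%). The CpG content of the windows overlapped between states. Windows of the 3 genes called lower held 10 to 14 CpGs (median 11), those of genes tested and not called 9 to 18 (median 11.5), and those of genes with no count 8 to 16 (median 10.0). The median over all windows was 14. The ratio of observed to expected CpGs was 0.426 to 0.556, 0.384 to 0.723 and 0.333 to 0.627 in the same 3 states.

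The libraries held 26700853 to 85991812 counts. DNMT1 itself was at 89.8 to 263 CPM (counts per 1000000, on library totals scaled by TMM) in HCT116 and at 14.1 to 22.3 CPM in DNMT1 KO, a log2 fold change of -2.97 (SE 0.33, edgeR adjusted p = 1.74e-05), so that the targeted gene followed the labels. Of 8 colon epithelial markers, 6 averaged above 1 CPM in each line, VIL1 and CDX1 being at or below it in both. The summed level of the 8 was 2520 to 6130 CPM in HCT116 and 645 to 1430 CPM in DNMT1 KO. The 5 fibroblast markers summed to 6.16 to 19.5 and 6.34 to 15.1 CPM, the 4 leukocyte markers to 0.0677 to 0.535 and 1.81 to 2.68 CPM and the 3 endothelial markers to 0.198 to 0.947 and 1.9 to 3.0 CPM. PTPRC, CD3E, CD14, CDH5, KDR, DCN, COL1A2 and PDGFRA averaged 1 CPM or less in both lines. The epithelial, leukocyte and endothelial sums thus did not overlap between the lines, and their part in the differences below was not tested.

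The cluster was largely silent in both lines, and its RNA came from a few islands. No count was found in any of the 10 libraries for 22 of the 43 genes (51.2%), 17 of them protein-coding and 5 pseudogenes. A count of 0 over all libraries of a line allows a level of up to 0.00841 CPM in HCT116 and 0.0175 CPM in DNMT1 KO (3 counts of the summed totals). These limits use totals without TMM scaling, unlike the other CPM values. Intervals and limits of this kind cover counting error only, and are too narrow if mates were counted singly, since low counts were mostly even (64.4 to 70.0% of genes with 1 to 10 counts) in 9 libraries, against 39.9% in DNMT1 KO replicate 4. A further 7 genes had counts but too few for the test, and 14 genes passed the filter on low counts and were tested. Each HCT116 library had counts for 15 or 16 cluster genes and each DNMT1 KO library for 15 to 19. Bulk RNA does not tell fewer cells expressing a gene from less RNA per cell.

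Along the chromosome, tested and untested genes alternated in long runs. The first 4 genes, ZNF101, ZNF14, ZNF56P and ZNF506, occupy 0.167 Mb and were all tested. The next 10, ZNF253 to ZNF85, cover 1.08 Mb, had 141 counts in all 10 libraries together and included 6 genes with no count. Then came 6 tested neighbours, ZNF430, ZNF714, ZNF431, ZNF708, ZNF738 and ZNF493, within 0.407 Mb and with 48816 counts. The longest quiet run followed, 16 genes from ZNF429 to ZNF730 over 1.65 Mb, with 16 counts in all and 14 genes without any. It includes ZNF43, ZNF257, ZNF98, ZNF99 and the long ZNF729. In the megabase from 22 to 23 Mb, 11 of 11 genes had no count. Beyond it, ZNF724 and ZNF91 were tested, and ZNF675 and ZNF254 stood as single tested genes between ZNF725P, ZNF681 and ZNF726, which had 2 counts in all.

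**Figure D2:**
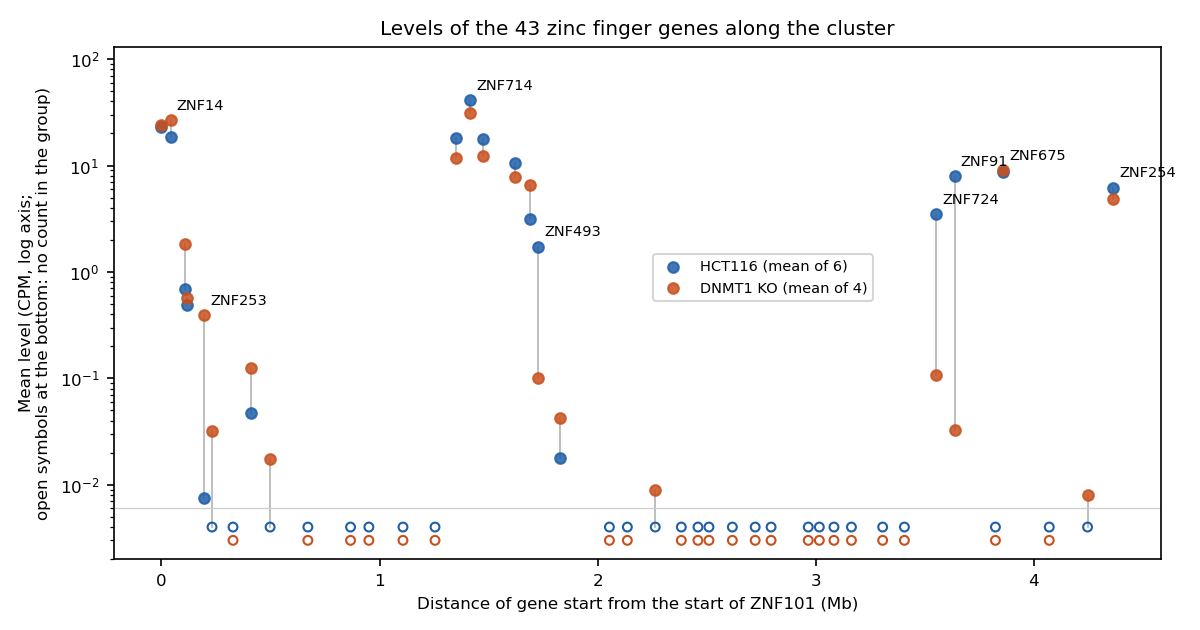
Mean level of each of the 43 cluster genes in HCT116 (blue, 6 libraries) and DNMT1 KO (orange, 4 libraries) in CPM on a log axis, against the distance of the gene's start from that of ZNF101 in Mb. Open symbols at the bottom are genes with no count in that line, and grey lines join both means of a gene. ZNF493, ZNF724 and ZNF91 drop far below their HCT116 level, while the other tested genes differ less between the lines. ZNF738, next to ZNF493, is at 3.17 CPM in HCT116 and 6.54 CPM in DNMT1 KO and was not called.

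Among the 14 tested genes, 3 were called lower in DNMT1 KO (21.4%, against 6.49% of all 19279 genes tested) and none was called higher (against 7.42% of all genes). Calls were made in edgeR's quasi-likelihood test where the adjusted p was under 0.05 and the change exceeded 1 on the log2 scale. Of the genes not called in edgeR, 2 had an unadjusted p under 0.05 with a positive change, ZNF56P and ZNF738, and DESeq2 called those 2 higher. The median log2 fold change of the 14 was -0.39, beside -0.07 over all genes tested. The same 3 genes were the ones whose DNMT1 KO libraries all lay below every HCT116 library (6.79% of all genes tested did so), and 1 gene, ZNF56P, lay above in every DNMT1 KO library (8.4% of all genes). With 22 genes at 0, the 14 are those expressed well enough in at least 1 line and do not stand for all 43.

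ZNF91 showed the largest difference. It ranged from 5.75 to 10.3 CPM in HCT116 (median 7.83). In DNMT1 KO it had 0 counts in replicates 1 and 2, 6 counts (0.0952 CPM) in replicate 3 and 1 count (0.0348 CPM) in replicate 4. The HCT116 libraries together held 2665 counts of this SVA repressor and the DNMT1 KO libraries 7, a ratio of 212 after scaling (95% exact interval of the counts 103 to 529). The fitted log2 fold change was -7.69 (SE 0.66, adjusted p = 1.3e-06, edgeR). Without DNMT1 KO replicate 3, which held 6 of the 7 counts, it was -9.51.

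ZNF724, the next zinc finger gene before ZNF91 on the map, ranged from 1.15 to 5.9 CPM in HCT116 (median 3.43). The DNMT1 KO libraries were at 0.0505, 0.0355, 0.0635 and 0.278 CPM in replicates 1 to 4. Replicate 4 was thus the highest of the 4, and still under every HCT116 library. The pooled ratio was 47.5 (29.2 to 83.4, exact interval) and the log2 fold change -5.16 (SE 0.71, adjusted p = 0.000108, edgeR). An annotated gene on the same strand, ENSG00000283201, shares 44.8% of the exonic bases of ZNF724 and was listed at 0 in every library. All of its exonic bases, and all of those of the nearby lncRNA ENSG00000269107, are shared with other genes on the same strand, so a 0 for either may come from reads that could not be assigned to 1 gene.

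ZNF493 lies 1.79 Mb from ZNF724, at the far end of the 6-gene island. In HCT116 it ranged from 0.804 to 2.59 CPM (median 1.7), the lowest of the 3. In DNMT1 KO it was at 0.0505, 0.107, 0.143 and 0.104 CPM, with 20 counts in all against 604 in HCT116. Its pooled ratio was 16.8 (10.8 to 27.8) and its log2 fold change -4.03 (SE 0.54, adjusted p = 8.46e-05, edgeR). The nearest zinc finger gene by symbol, ZNF738, starts 38189 bases before it and was not called. Between them lies the pseudogene ENSG00000213976, also not called (1.08, adjusted p = 0.182 in edgeR). The next zinc finger gene on the other side, ZNF429, had 4 counts in HCT116 and 10 in DNMT1 KO.

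Within batches the 3 decreases were close to these values. The log2 ratio of DNMT1 KO to HCT116 was -3.99 in batch 1 and -4.15 in batch 2 for ZNF493, -5.34 and -5.07 for ZNF724, and -7.64 in batch 2 for ZNF91, whose DNMT1 KO library of batch 1 was at 0. The summed level of the 3 genes was 13.1 ± 2.95 CPM (SD, n = 6) for HCT116 and 0.24 ± 0.146 CPM (SD, n = 4) for DNMT1 KO, out of 162 ± 73.1 and 137 ± 8.04 CPM for the whole cluster.

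**Figure D3:**
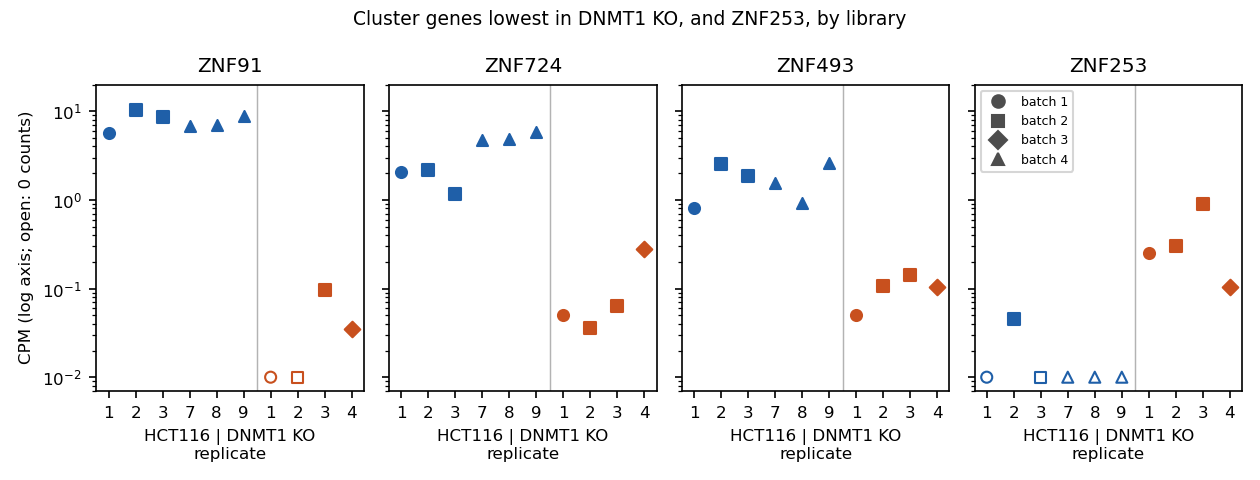
CPM of ZNF91, ZNF724, ZNF493 and ZNF253 in each library (log axis; open symbols are 0 counts, drawn at 0.01). HCT116 replicates are blue and DNMT1 KO replicates orange, with symbol shape for batch; the 3 genes called lower lie at 0.804 CPM or more in every HCT116 library and at 0.278 CPM or less in every DNMT1 KO library, and ZNF253 shows the opposite order at low counts.

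ZNF724 and ZNF91 lie in a stretch in which other annotated genes were lower as well. The stretch, chosen after its values were seen, holds 14 annotated genes from 23204010 to 23416075, of which 8 had no count. It runs past both zinc finger genes, to ENSG00000269471 before ZNF724 and LINC01224 beyond ZNF91, each with no count. In the stretch 4 genes were tested, and all 4 were called lower (against 6.49% of all genes tested), 2 of them ZNF724 and ZNF91. Besides the zinc finger genes these were IPO5P1, a transcribed pseudogene of an importin gene, and the lncRNA ENSG00000284428. IPO5P1 fell from 4.53 ± 1.16 CPM to 1.35 ± 0.313 CPM (log2 fold change -1.75, SE 0.34, edgeR adjusted p = 0.00202). ENSG00000284428 fell from 0.592 ± 0.25 to 0.0689 ± 0.0627 CPM (-3.26, SE 0.74, adjusted p = 0.00607 in edgeR). The annotated gene ENSG00000283201 shares exonic bases with both ZNF724 and ENSG00000284428 on their strand. ENSG00000269107 shares exonic bases with both ENSG00000284428 and IPO5P1, also on their strand. ZNF724, ENSG00000284428 and IPO5P1 may thus not be separate transcripts. ZNF91 shares no exonic bases with another gene. The untested lncRNA ENSG00000267934, which lies inside ZNF91 on the other strand, had 20 counts in HCT116 and 0 in DNMT1 KO. No strand option is named for the counting, so reads from the ZNF91 strand cannot be told apart there. IPO5, the parent of the pseudogene, was at 397 ± 125 and 265 ± 54.1 CPM (-0.58, SE 0.28, adjusted p = 0.199 in edgeR). Of the exonic 50-mers of IPO5P1, 95.9% occur once in the main chromosomes of hg38. How far reads of the parent enter the pseudogene's count was not tested. In the rest of the window none of the other 22 tested genes that are not zinc finger genes was called, so that 2 of 24 such genes (8.33%) were called lower, near the 6.49% of all genes tested.

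The other 11 tested genes were called in neither direction. They are termed kept for short, which does not mean that their levels were shown to be unchanged. Ordered by level per kilobase of exon over all libraries, they ran from ZNF14 (7.34 CPM per kb) through ZNF714 (4.62), ZNF101 (3.55), ZNF430 (2.29), ZNF708 (2.17), ZNF675 (1.31), ZNF738 (1.16), ZNF431 (1.11), ZNF254 (0.741) and ZNF56P (0.484) to ZNF506 (0.055). In HCT116, neighbours in this order differed by less than the sum of their SDs, except ZNF254 and ZNF56P, and ZNF56P and ZNF506. There, for example, ZNF14 was at 6.24 ± 1.93 and ZNF714 at 5.14 ± 2.86 CPM per kb. On the same scale ZNF91 had stood at 0.765 ± 0.159, ZNF724 at 1.04 ± 0.577 and ZNF493 at 0.153 ± 0.0689 CPM per kb in HCT116, so that the lost genes were neither the strongest nor the weakest of the expressed set.

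ZNF14 ranged from 12.7 to 27.8 CPM in HCT116 (median 16.9) and was at 24.9, 24.0, 35.4 and 22.2 CPM in DNMT1 KO. These ranges overlapped, and the log2 fold change was 0.53 (SE 0.26, adjusted p = 0.214 in edgeR). ZNF714 spanned 14.9 to 75.5 CPM in HCT116 (median 38.8), against 29.9, 33.2, 27.2 and 33.4 CPM in DNMT1 KO, which lay inside that range (-0.42, SE 0.38, adjusted p = 0.524 in edgeR). ZNF101 behaved alike, with 10.4 to 39.6 CPM in HCT116 (median 21.2) and 21.1, 27.7, 22.9 and 23.5 CPM in DNMT1 KO (0.05, SE 0.37, adjusted p = 0.949 in edgeR).

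ZNF430, the first gene of the 6-gene island, spanned 4.7 to 33.2 CPM in HCT116 (median 17.7) and was at 8.44, 12.8, 12.8 and 13 CPM in DNMT1 KO (-0.63, SE 0.41, adjusted p = 0.36 in edgeR). ZNF708 spanned 4.97 to 19.8 CPM (median 8.87) and was at 7.58, 6.5, 8.62 and 8.27 CPM (-0.44, SE 0.37, adjusted p = 0.492 in edgeR). For both genes every DNMT1 KO value lay inside the HCT116 range. ZNF675, known as an inhibitor of TRAF6 signalling and the tested gene next to the ZNF724 to ZNF91 stretch, spanned 2.94 to 16.7 CPM (median 7.26) and was at 8.84, 6.5, 8.9 and 12.1 CPM (0.05, SE 0.41, adjusted p = 0.954 in edgeR). ZNF431 (-0.55), ZNF254 (-0.36) and ZNF506 (0.22) likewise did not pass, at adjusted p between 0.344 and 0.813 in edgeR. The 11 kept genes summed to 149 ± 70.8 CPM (SD, n = 6) for HCT116, beside 136 ± 7.63 CPM (SD, n = 4) for DNMT1 KO.

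**Figure D4:**
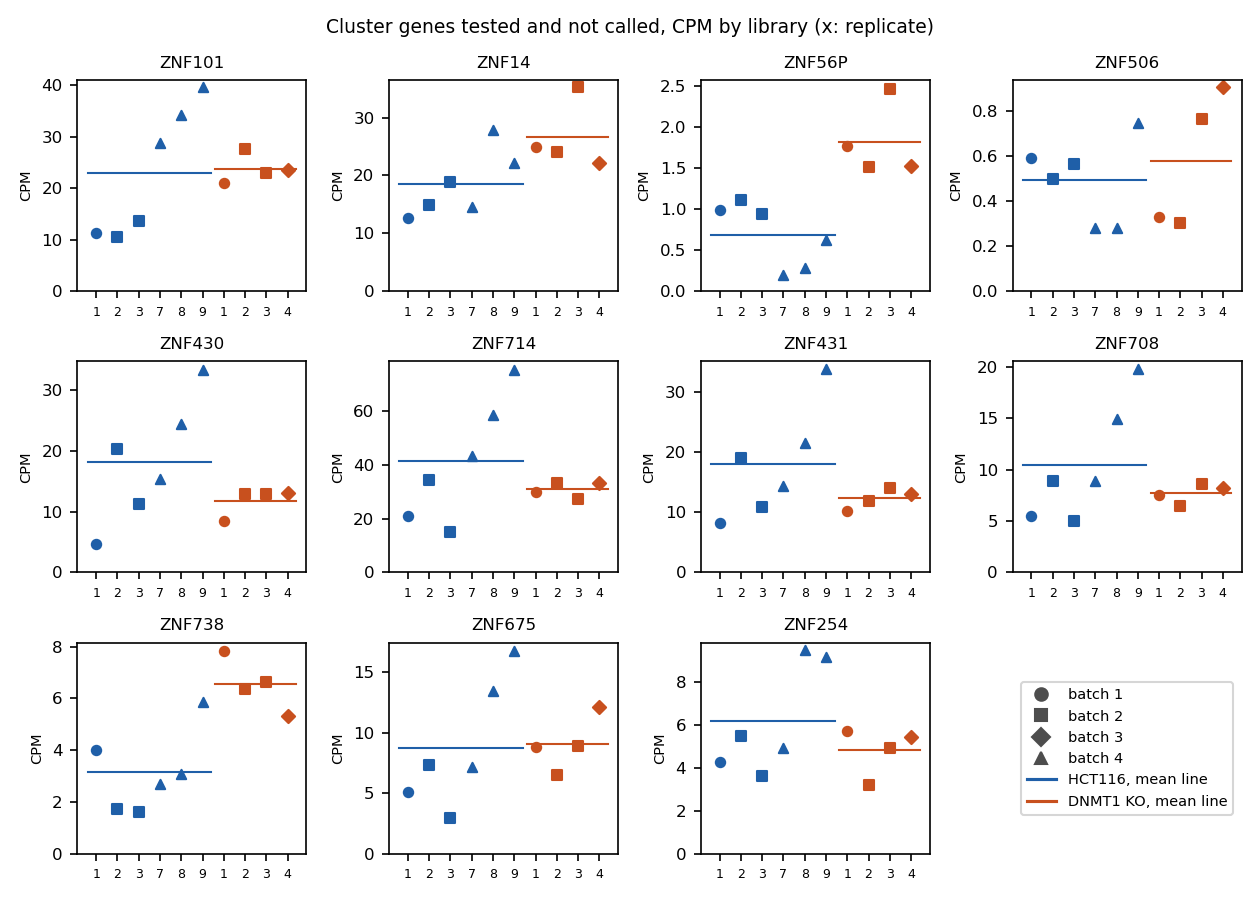
CPM in each library for the 11 cluster genes tested and not called, 1 panel per gene (x axis, replicate; HCT116 blue, DNMT1 KO orange; symbol shape for batch; lines, group means; each y axis starts at 0). In the ZNF101 and ZNF714 panels the HCT116 replicates of batch 4 all lie above those of batches 1 and 2, with the DNMT1 KO values inside the HCT116 range; ZNF56P is the panel in which the groups do not overlap.

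A few genes were higher in DNMT1 KO without passing both limits. The pseudogene ZNF56P was at 0.195 to 1.11 CPM in HCT116 (median 0.776) and at 1.77, 1.51, 2.46 and 1.53 CPM in DNMT1 KO (log2 fold change 1.42, SE 0.47, adjusted p = 0.0555 in edgeR). Every DNMT1 KO library exceeded every HCT116 library. It shares 15.7% of its exonic bases with genes on the other strand, ZNF506 among them, and no strand option is named for the counting, so reads of the overlap cannot be told apart. ZNF738 was at 1.6 to 5.88 CPM in HCT116 (median 2.89) and at 7.83, 6.38, 6.62 and 5.32 CPM in DNMT1 KO, with 1 HCT116 library, replicate 9, inside that range (1.04, SE 0.36, adjusted p = 0.0663 in edgeR).

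ZNF253 was the clearest of the untested genes. It had 2 counts in HCT116, both in replicate 2, and 10, 17, 57 and 3 counts in DNMT1 KO replicates 1 to 4, or 0.253, 0.302, 0.905 and 0.104 CPM. The ratio of DNMT1 KO to HCT116 was 78.0, with an exact interval of 20.9 to 654. When no filter was applied the gene was called higher (adjusted p = 8.4e-05 in edgeR, where 5.58% of 35231 genes were called higher). Its level stayed under 1 CPM in every library. The other genes with counts below the filter were close to the limit of a count of 0. ZNF93, the L1-binding neighbour of ZNF253, had 8 counts in DNMT1 KO replicate 3 and none elsewhere. ZNF486, ZNF208 and ZNF726 had 3, 2 and 2 counts, all in DNMT1 KO. The share of all genes with counts in 1 line alone was not computed, so no difference between the lines is read from these few counts. ZNF90 had 19 and 22 counts in the lines, a DNMT1 KO to HCT116 ratio of 2.08 (1.07 to 4.06).

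Some cluster genes differed between batches within HCT116. HCT116 replicates 7, 8 and 9 (batch 4) were compared with replicates 1, 2 and 3. Of the 14 tested genes, 3 were called higher in batch 4 (against 3.09% of 18656 genes). None was called lower, and 10 had a positive log2 fold change. The shares of all genes called lower or with a positive change were not computed. A general shift of batch 4 therefore cannot be told apart from one of the cluster. Of the 11 kept genes 2 were among the 3, and ZNF56P (-1.47, adjusted p = 0.125 in edgeR) and ZNF506 (-0.34, adjusted p = 0.765 in edgeR) had the opposite sign without passing. ZNF101 differed by 1.53 (SE 0.31, adjusted p = 0.0115), ZNF724 by 1.51 (SE 0.41, adjusted p = 0.0372) and ZNF714 by 1.33 (SE 0.36, adjusted p = 0.036), all in edgeR. ZNF91 (-0.14) and ZNF493 (-0.05) were alike in both sets within their errors of 0.35 and 0.53. The summed cluster level was 86.7 to 139 CPM in batches 1 and 2 and 154 to 274 CPM in batch 4 of HCT116, beside 127 to 146 CPM in DNMT1 KO.

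Restricting the comparison to batches 1 and 2, which hold both lines, with batch as a term left 3 libraries a line and 15 cluster genes tested. ZNF91, ZNF724 and ZNF493 were again called lower (-7.81, -5.07 and -4.07, against 6.98% of 18681 genes called lower), and 3 genes were called higher (7.37% of genes called higher). These were ZNF101 (1.03, SE 0.26, adjusted p = 0.0294), ZNF738 (1.62, SE 0.35, adjusted p = 0.0136) and ZNF253 (4.7, SE 1.02, adjusted p = 0.0142), all in edgeR. ZNF14 did not pass there (0.87, SE 0.27, adjusted p = 0.0622), and ZNF56P was at 0.92 (SE 0.4, adjusted p = 0.176). The ZNF101 log2 ratio was 0.91 in batch 1 and 1.08 in batch 2, against 0.05 over all libraries. Batches 3 and 4 hold 1 line each and give no value of their own.

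**Figure D5:**
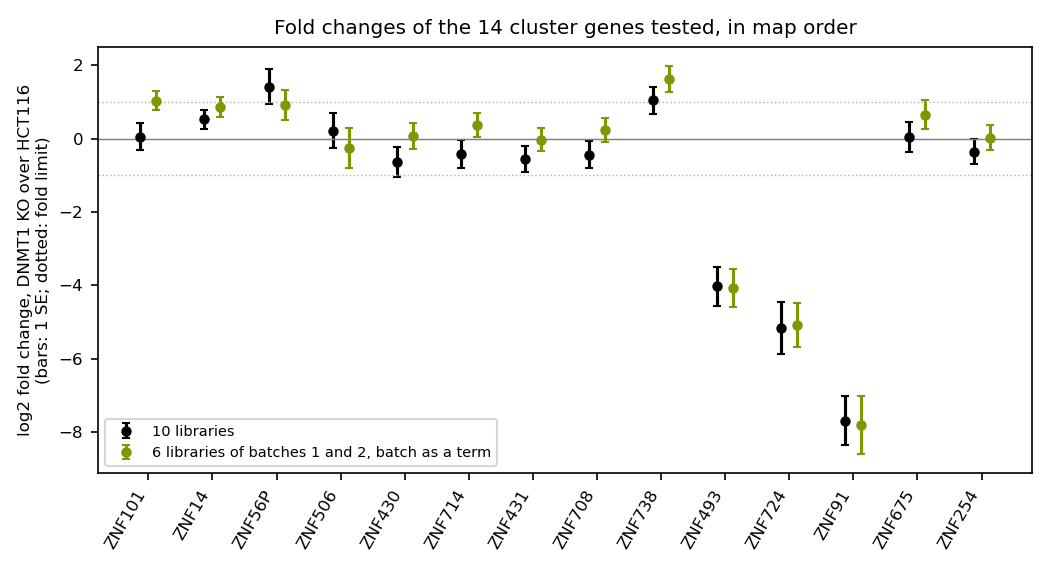
Log2 fold change of DNMT1 KO over HCT116 for the 14 tested genes in map order, over all 10 libraries (black) and over the 6 libraries of batches 1 and 2 with batch as a term (green). Bars are 1 SE and dotted lines the fold limit of 1. ZNF493, ZNF724 and ZNF91 lie below -3 in both fits, and ZNF101 and ZNF738 lie above 1 in the second.

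The cluster was set beside the other zinc finger genes by counts. Genes with no count made up 17 of its 37 protein-coding genes (45.9%). In the 5 other windows of zinc finger genes on chromosome 19 the share of protein-coding genes with no count was 2.13 to 9.43%, on other chromosomes 8.48% (24 of 283), and over all protein-coding genes listed 13.9%. These shares were not tested against each other. Among genes tested, 21.4% were called lower in the cluster. In the other windows of chromosome 19 the share was 29.6% (8 of 27) between 8.5 and 13 Mb, 25% (5 of 20) and 15.2% (5 of 33) in the proximal and distal windows between 34 and 51 Mb, 50.0% (20 of 40) between 51 and 56 Mb and 6.82% (3 of 44) beyond 56 Mb. It was 4.91% (13 of 265) on other chromosomes. Calls of a higher level were 0 of 14 in the cluster and 26 of 437 (5.95%) in zinc finger genes elsewhere.

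The annotated coding sequences held 5 to 36 C2H2 fingers, counted as C, 2 residues, C, 12 residues, H, 3 to 5 residues, H in the longest translated coding sequence of 37 genes. ZNF91 had 31 fingers, ZNF493 18 and ZNF724 14. The kept genes had 5 to 17 (median 11.5) and the genes with no count 10 to 34 (median 13). ZNF208 with 36 fingers and ZNF729 with 34 were the longest arrays, and both were at or near 0 counts in both lines.

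Near-identical copies could hide reads, since reads of low mapping quality were removed. The share of exonic 50-mers found once in the main chromosomes of hg38 was 87.3 to 92.5% for the genes called lower. It was 89.4 to 99.7% for those kept and 52.5 to 100% (median 93.0%) for the genes with no count. It was 87.3% for ZNF91, and lowest for ZNF98 (52.5%), ZNF492 (53.4%) and ZNF849P (60.4%), whose counts of 0 are therefore the least certain. Fragments are longer than 50 bases, so these shares describe single reads. Alternate and unplaced sequences of hg38 were not searched, so copies there would be missed.

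Of a list of KRAB cofactors and of other factors tied to H3K9me3 at zinc finger genes and repeats, most were not called. The list was TRIM28, SETDB1, ATF7IP, CBX1, CBX3, CBX5, TASOR, MPHOSPH8, PPHLN1, MORC2, ZNF274, SMARCAD1, ATRX and DAXX. Of 14 listed genes, 13 were tested, 1 was called higher (against 7.42% of all genes tested) and none lower (against 6.49%), so that the share called was near that of all genes. The median log2 fold change was 0.31. CBX5, which encodes the heterochromatin protein HP1 alpha, was at 209 to 419 CPM in HCT116 (median 320) and at 678, 590, 710 and 722 CPM in DNMT1 KO (1.09, SE 0.24, adjusted p = 0.00483 in edgeR). In the fit of batches 1 and 2 that has a batch term it was at 0.94 (adjusted p = 0.0289 in edgeR), under the fold limit. ATF7IP, the partner of SETDB1 (0.83, SE 0.23, adjusted p = 0.0244), and MORC2, a HUSH-associated ATPase (0.82, SE 0.25, adjusted p = 0.0339), passed the p limit alone in edgeR. TRIM28 (-0.04, adjusted p = 0.95) and SETDB1 (0.12, adjusted p = 0.768) did not pass in edgeR. DAXX, a histone chaperone, had 62 counts in HCT116 and 3 in DNMT1 KO, too few to pass the filter. Without the filter it was called lower (-3.22, SE 1.06, adjusted p = 0.0446 in edgeR, where 4.39% of 35231 genes were called lower). The uniqueness of DAXX exons was not measured. How far the removal of reads of low mapping quality lowered its counts was not tested.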

How the data were processed

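RNA of HCT116 (6 libraries) and DNMT1 KO cells (4 libraries) was measured by stranded, poly(A)-selected, paired-end sequencing. The authors trimmed reads with TrimGalore 0.4.1 (checked with FastQC 0.11.4), aligned them to hg38 (bowtie2, an aligner that leaves junction-spanning reads unsplit), removed reads with a mapping quality under 10 and summed exonic reads by gene in featureCounts without naming a strand setting. Each deposited table gives raw, unnormalised counts for 58884 genes in 1 library. Another 3 tables, of HCT116 replicates that are not in the sample list, were not used. Library totals were 26700853 to 85991812 counts, and low genes are limited by counting error. Removal of reads that map equally well elsewhere lowers the counts of near-identical copies.

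The cluster genes, their grouping and the cofactor and marker lists were chosen with earlier results of these data known. Symbols and coordinates came from GENCODE release 44 on hg38. DNMT1 KO was compared with HCT116 in R 4.3.3 with edgeR 4.0.16 (TMM, filterByExpr defaults, glmQLFit, then a two-sided glmQLFTest of the line, with no other term), adjusting p by Benjamini-Hochberg over 19279 genes. The fit was tested on simulated data. Called genes had adjusted p under 0.05 and an absolute log2 fold change above 1. The SE is the absolute log2 fold change over the square root of F. CPM used TMM-scaled totals, except in the limits for a count of 0, and levels between genes were divided by exonic length. Genes given in full were the called genes with at least 1 CPM in the higher group (up to 8 lower and 6 higher), the 6 uncalled genes of highest CPM per kb, called cofactors and DNMT1. ZNF56P, ZNF738, ZNF253 and the stretch that holds ZNF724 and ZNF91 were chosen after their values were seen. Alternatives were other size factors, no filter, DESeq2 1.42.0, batch terms, a replicate block, halved counts and leaving out each library. Replicate numbers are shared by the lines, but deviations of same-numbered libraries correlated at 0.46, -0.2 and 0.37, so they were not taken as pairs. Uniqueness was the share of exonic 50-mers found once in the main chromosomes of hg38 (autosomes, X, Y and mitochondrial), on both strands. The alternatives were 40-mers and 75-mers. Alternate and unplaced sequences were not searched. Promoter windows were those of RefSeq (GRCh38.p14). Printed stretches were compared with hg38 and found identical. Python tools did the rest.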

Additional observations from a re-analysis of the deposited data

Results flagged for a closer look

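Of 56 groups of library values examined (the tested cluster genes, DNMT1 and the tested cofactors, each in both lines), 2 held a library far from the others of its line, and chance gives about 1 in 20. ZNF430 in DNMT1 KO replicate 1 was at 8.44 CPM, below the 12.8 to 13 CPM of the other 3 replicates. ZNF724 in DNMT1 KO replicate 4 was at 0.278 CPM, above the 0.0355 to 0.0635 CPM of the other 3. That is 8 counts in the shallowest library, and without it the log2 fold change of ZNF724 was -6.06 in place of -5.16.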

How the results depend on the processing

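ZNF91, ZNF724 and ZNF493 were called lower under every one of the 18 alternatives run, so the count of 3 did not move. The count called higher, 0 over all libraries, was 2 with library totals alone (ZNF56P, ZNF738), 1 without a filter (ZNF253), 2 with batch as a term (ZNF101, ZNF738), 3 in batches 1 and 2 with a batch term (with ZNF253 added), 1 with halved counts and 2 with DESeq2 (both ZNF56P, the second with ZNF738), and 0 to 1 when a library was left out. With the replicate block over replicates 1 to 3 it was 2 (ZNF738, ZNF253). The single higher call came without HCT116 replicate 2 or 3 (ZNF56P), without HCT116 replicate 9 (ZNF738) or without DNMT1 KO replicate 4 (ZNF253). Library totals alone moved the median of all genes from -0.07 to 0.14 on the log2 scale, and lower calls from 46.6 to 33.7% of all calls. The median of the 14 cluster genes, -0.39, was 0.15 with batch as a term, 0.16 in batches 1 and 2 and 0.2 with the replicate block, and -0.49 to -0.15 with a library left out. Cofactor calls, 1 over all libraries, were 3 with library totals alone, 2 without a filter (CBX5 higher, DAXX lower), 0 with batch as a term, 0 in batches 1 and 2, 0 with the replicate block and 0 to 2 with a library left out, CBX5 being lost without HCT116 replicate 8 (0.99), MORC2 called higher without HCT116 replicate 7 (1.01) and DAXX called lower without DNMT1 KO replicate 4 (-6.42).

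Changes of sign were found among uncalled genes alone, and their cause was not tested. With batch as a term, in batches 1 and 2, and with the replicate block, in this order, ZNF506 was at -0.25, -0.25 and -0.34, ZNF430 at 0.071, 0.074 and 0.12, ZNF714 at 0.37, 0.37 and 0.45, ZNF708 at 0.24, 0.24 and 0.27 and ZNF254 at 0.03, 0.031 and 0.035. ZNF431 was at 0.0098 with the block. With a library left out, ZNF101 ran from -0.062 to 0.28, ZNF675 from -0.12 to 0.34, ZNF506 from -0.071 to 0.43, and ZNF91 from -9.51 to -7.24. The median k-mer uniqueness of the 43 genes was 92.2% for 50-mers, 84.8% for 40-mers and 98.6% for 75-mers.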
